A study of Mus musculus with 32 samples.

Results

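The 8 genes that encode the enzymes writing and removing DNA methylation, with the cofactors these enzymes need, were followed as RNAs on chromatin. They were Dnmt1 and Uhrf1 (maintenance), Dnmt3a, Dnmt3b and Dnmt3l (de novo methylation), and Tet1, Tet2 and Tet3 (demethylation). An interaction belonged to a member when the Ensembl identifier of its RNA tag was that of the gene. All 8 were found, among 17784 transcripts listed in any library, and they gave 50081 of 25231081 listed interactions (0.198%). RADICL-seq joins RNA to nearby DNA in fixed nuclei through a bridge adapter, and each sequenced molecule yields a tag of each kind. The data comprise 15 libraries (32 repository entries) from male R08 mouse embryonic stem cells (mESC) and from Oli-neu cells (mOPC), an immortalised line of oligodendrocyte progenitors. The groups were mESC 1FA and mOPC 1FA (1% formaldehyde, 3 libraries each), mESC 2FA (2% formaldehyde, 3 libraries), mESC ActD4 (5 µg/ml of the transcription inhibitor actinomycin D for 4 h, 2 libraries), and mESC NPM and mOPC NPM (2 libraries each). In NPM (non-protein-mediated) libraries, proteinase K digestion and crosslink reversal preceded the ligation of RNA. The ActD4 and NPM cells were fixed with 1% formaldehyde as well. Each cell type was 1 line, and replicates were batches of cells of different passage number.

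DNMT1 copies methyl groups onto the new strand after replication, and UHRF1 brings it to hemimethylated CpG dinucleotides. DNMT3A and DNMT3B place methyl groups on unmethylated DNA, while DNMT3L has no catalytic activity of its own and stimulates both. The TET proteins oxidise 5-methylcytosine, the first step of active demethylation. Embryonic stem cells are known for high TET1, TET2, DNMT3B and DNMT3L, whereas DNMT3A and TET3 prevail in many neural cells.

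The members lay on chromosomes 9 (Dnmt1), 17 (Uhrf1), 12 (Dnmt3a), 2 (Dnmt3b), 10 (Dnmt3l and Tet1), 3 (Tet2) and 6 (Tet3) of mm10. Dnmt3a has more than 1 distal start, the first of which is called the distal start here. Its internal start is known to give the shorter DNMT3A2 protein of stem cells. The RNA tags on either side of the internal start are compared in a later paragraph. Tet1 is the member with the most interactions, and part of its tags fell upstream of its start, as part of the Tet3 tags did. The 250 bases before the distal and internal Dnmt3a starts and the Tet1 start are shown, from RefSeq annotation of GRCm38.p6, 5′ to 3′ along the gene. Every CpG, the substrate of the encoded enzymes, is in capitals. The distal Dnmt3a sequence is chr12:3806730-3806979, the internal one chr12:3891494-3891743 (both plus strand), and that of Tet1 chr10:62887325-62887574 (minus strand).
Dnmt3a distal: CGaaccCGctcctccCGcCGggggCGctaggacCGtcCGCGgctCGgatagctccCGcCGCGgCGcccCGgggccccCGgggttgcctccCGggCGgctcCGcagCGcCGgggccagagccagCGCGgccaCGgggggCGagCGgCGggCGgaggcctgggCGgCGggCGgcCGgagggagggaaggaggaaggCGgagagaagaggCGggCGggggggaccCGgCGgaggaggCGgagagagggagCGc
Dnmt3a internal: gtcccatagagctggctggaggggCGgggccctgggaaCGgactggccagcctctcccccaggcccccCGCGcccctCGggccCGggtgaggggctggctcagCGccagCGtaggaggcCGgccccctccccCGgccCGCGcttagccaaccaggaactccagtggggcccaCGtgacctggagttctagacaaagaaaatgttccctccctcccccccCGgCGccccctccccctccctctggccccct
Tet1: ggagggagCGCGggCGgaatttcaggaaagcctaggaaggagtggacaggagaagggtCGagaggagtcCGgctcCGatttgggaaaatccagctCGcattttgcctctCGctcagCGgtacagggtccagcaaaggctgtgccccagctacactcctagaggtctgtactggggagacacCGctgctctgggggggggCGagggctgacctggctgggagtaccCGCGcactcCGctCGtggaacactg

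The distal Dnmt3a sequence held 38 CpGs, and 1.88% of 32851 annotated promoters held at least as many. The next distal start of Dnmt3a, not shown, had 40, reached by 1.31% of promoters. The internal sequence and that of Tet1 held 15 CpGs each, a number reached by 27.3% of promoters. The median promoter held 6. Among the other members the Tet2 promoter was the richest, with 51 CpGs, reached by 0.0670% of promoters. The Uhrf1 starts had 10 and 30, the Dnmt1 starts 2, 7 and 26, and the Dnmt3l starts 5, 4 and 3. Dnmt3b had 21 and Tet3 17.

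The files list only those interactions whose pairing of RNA and 25-kb DNA bin was significant when replicates were pooled. A file total is therefore not a sequencing depth, and a listed 0 is not an absence. Capture is the number of listed interactions of an RNA, and its levels are given as CPM, the listed interactions of a gene scaled to the listed total of the library. Folds of capture are those of the limma fits on TMM-scaled levels unless scaling by totals is named. They therefore differ from ratios of the printed CPM. Totals ranged from 1998951 to 2832717 in the 1FA and 2FA libraries, from 1190366 to 1272653 in mOPC NPM, and from 251802 to 608994 in mESC ActD4 and mESC NPM. All 8 mESC markers (Pou5f1, Nanog and others) were lower in mOPC 1FA. Their summed level there was 1.81 to 3.00 CPM, against 2327 to 2865 CPM in mESC 1FA. The 5 of 8 mOPC markers with enough interactions to be tested (among them Sox10 and Olig2) were higher. In each mOPC 1FA library 2 of the 8 mESC markers were listed above 0, and in mESC 1FA 3 or 4 of the 8 mOPC markers. Markers listed at 0 in a line passed the filter on low values only through the other line, so these directions are given as a description. Of the 3 mOPC markers not tested, Gpr17 and Olig1 were listed in mOPC 1FA and not in mESC 1FA, whereas Pdgfra ran the other way, with 8, 56 and 69 interactions in mESC 1FA and 3, 8 and 4 in mOPC 1FA. Replicate 1 of mESC stood apart in the primitive endoderm list, whose summed level in mESC 1FA was 51.0 CPM in replicate 1 against 203 and 211 CPM, and in mESC 2FA 24.96 against 234 and 203 CPM. Its part in the results was not tested beyond leaving out libraries.

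The enzyme genes divided by cell line. In mESC 1FA they took 0.251% of listed interactions and in mOPC 1FA 0.0943%. Tet1 alone gave 11855 of the 19963 member interactions in mESC 1FA and 322 of the 5959 in mOPC 1FA. The difference between these shares is thus largely that of Tet1. Tet1 was the most captured RNA per length in mESC and Tet3 in mOPC. The 7 members listed in both lines were all called by limma, 2 higher and 5 lower in mOPC, beside 78.0% of the 10256 transcripts tested, and Dnmt3l was listed at 0 in mOPC. Dnmt3b and Dnmt3l passed the filter on low values only through mESC 1FA, so the call of Dnmt3b is given as a description. The share called, 78.0%, is high for any transcript. Over all transcripts the median log2 fold change was -0.30, and it was -0.73 when libraries were scaled by their totals instead of TMM, with 3380 of 8002 and 2604 of 8225 calls higher. None of the members' directions depended on this choice. In bulk samples such as these, fewer cells of a type and less RNA per cell cannot be told apart.

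**Figure D1:**
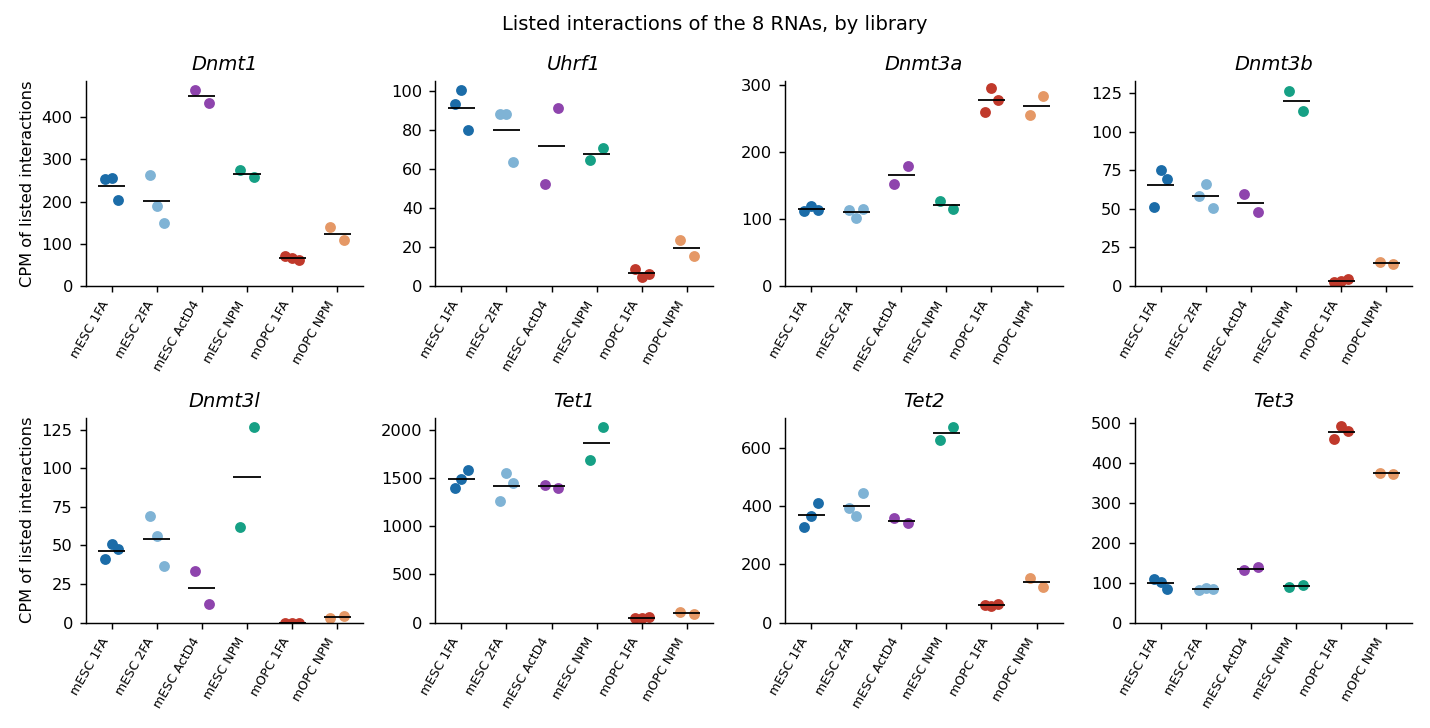
Listed interactions of each member as CPM of the library's listed interactions (linear axes from 0, separate for each gene). Points are libraries and lines are group means. Dnmt3a and Tet3 were higher in both mOPC groups than in any mESC group, and the other 6 were lower.

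Of the maintenance genes, Dnmt1 gave 674, 625 and 577 listed interactions in the mESC 1FA libraries and 158, 140 and 121 in mOPC 1FA, or 253, 256 and 204 against 71.5, 66.4 and 60.5 CPM. The groups did not overlap, and the log2 fold change was -1.40 (SE 0.13, adjusted p = 2.12e-05 by limma). Uhrf1 gave 249, 245 and 226 interactions under 1FA in mESC and 19, 10 and 12 in mOPC 1FA. Its level of 93.3, 100.3 and 79.8 CPM thus faced 8.59, 4.74 and 6.00, and it fell by 3.39 on the log2 scale (SE 0.22, adjusted p = 2.26e-06 by limma). For both genes of maintenance the mOPC 1FA libraries thus lay below every mESC 1FA library. On the TMM scale of the test, these groups did not overlap for 8256 of the 10256 transcripts tested.

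The de novo genes moved in opposite directions. Dnmt3a gave 299, 292 and 319 interactions under 1FA in mESC and 575, 624 and 556 in mOPC 1FA. In levels, 112, 120 and 113 CPM rose to 260, 296 and 278. On the TMM scale of the test the increase was 3.26-fold (log2 1.71, SE 0.10, adjusted p = 1.36e-06 by limma). Dnmt3b gave 137, 183 and 196 interactions under 1FA in mESC and only 6, 7 and 9 in mOPC 1FA. Its levels were 51.4, 74.95 and 69.2 against 2.71, 3.32 and 4.502 CPM, and it was lower by 3.73 on the log2 scale (SE 0.25 by limma). Dnmt3b passed the filter on low values only through mESC 1FA, so no p is given for it. Dnmt3l gave 110, 124 and 136 interactions under 1FA in mESC and was listed at 0 in all 3 mOPC 1FA libraries, so neither a fold nor a p is given. It was listed in mOPC NPM with 4 and 5 interactions.

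The TET genes likewise split. Tet1 gave 3734, 3639 and 4482 interactions under 1FA in mESC and 106, 100 and 116 in mOPC 1FA. This was 1400, 1490 and 1582 against 48.0, 47.4 and 58.0 CPM, and Tet1 fell by 4.43 on the log2 scale (SE 0.10, adjusted p = 4.19e-09 by limma), the largest fall among members listed in both lines. Tet2 had 873, 896 and 1168 interactions against 134, 120 and 130, or 327, 367 and 412 against 60.6, 56.9 and 65.0 CPM. It fell by 2.16 on the log2 scale (SE 0.11, adjusted p = 3.33e-07 by limma). Tet3 ran the other way, with 292, 246 and 241 interactions in mESC 1FA and 1017, 1040 and 959 in mOPC 1FA. The level of 109, 101 and 85.1 CPM rose to 460, 493 and 480. On the TMM scale of the test the rise was 6.57-fold (log2 2.72, SE 0.12, adjusted p = 1.86e-07 by limma).

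In the other groups, Dnmt1 was at 264, 189 and 149.9 CPM in mESC 2FA, 466 and 433 in mESC ActD4, 274 and 258 in mESC NPM and 139.9 and 108 in mOPC NPM. The ActD4 libraries lay above all others for this gene. Uhrf1 had levels of 88.3, 88.4 and 63.6 CPM (mESC 2FA), 52.5 and 91.3 (mESC ActD4), 64.4 and 70.6 (mESC NPM) and 23.6 and 15.1 (mOPC NPM). The mESC NPM values lay below those of mESC 1FA and within the range of mESC 2FA and of mESC ActD4. Dnmt3a was at 114, 101 and 115 CPM in mESC 2FA, 153 and 179 in mESC ActD4, 127 and 115 in mESC NPM and 255 and 283 in mOPC NPM. Dnmt3b had levels of 58.4, 66.3 and 50.5 CPM (mESC 2FA), 59.7 and 47.7 (mESC ActD4), 127 and 113 (mESC NPM) and 15.7 and 14.3 (mOPC NPM). The mESC NPM libraries of Dnmt3b lay above all others. Dnmt3l was at 69.1, 56.0 and 36.6 CPM in mESC 2FA, 33.4 and 11.9 in mESC ActD4, 62.1 and 126 in mESC NPM, and 3.143 and 4.2004 in mOPC NPM. In mESC ActD4 and in mESC NPM the 2 libraries of Dnmt3l differed by more than those of mESC 1FA. Tet1 had levels of 1266, 1549.5 and 1443 CPM (mESC 2FA), 1433 and 1398 (mESC ActD4), 1691 and 2026 (mESC NPM) and 109 and 92.4 (mOPC NPM). Tet2 was at 395, 367 and 444 CPM in mESC 2FA, 358 and 342 in mESC ActD4, 628 and 673 in mESC NPM and 153 and 123 in mOPC NPM. Tet1 and Tet2 were highest in mESC NPM on this scale. Tet3 had levels of 82.9, 86.5 and 84.7 CPM (mESC 2FA), 131 and 139 (mESC ActD4), 89.7 and 95.2 (mESC NPM) and 376 and 372 (mOPC NPM). The mOPC NPM values lay below those of mOPC 1FA and above those of every mESC library.

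Per kb of gene, the order in mESC 1FA was led by Tet1 with 13.4 to 15.2 CPM per kb. Dnmt1 (3.87 to 4.86), Uhrf1 (3.96 to 4.98) and Tet2 (4.02 to 5.06) followed and overlapped one another. Below them came Dnmt3l (1.90 to 2.34) and Dnmt3b (1.34 to 1.96), which overlapped, and then Dnmt3a (1.03 to 1.10) and Tet3 (0.880 to 1.13), which overlapped too. In mOPC 1FA the order was Tet3 (4.76 to 5.10), Dnmt3a (2.40 to 2.73), Dnmt1 (1.15 to 1.36), Tet2 (0.699 to 0.798), Tet1 (0.454 to 0.556), Uhrf1 (0.235 to 0.426) and Dnmt3b (0.0709 to 0.118), with no overlap between neighbours. The genes last in mESC were thus first in mOPC. Gene spans are those of the whole locus, introns included.

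The same directions were found after protein digestion. In mOPC NPM against mESC NPM, 8 of 8 members were called, 2 higher and 6 lower, beside 51.2% of 11043 transcripts. Tet3 was 5.43-fold higher (log2 2.44, SE 0.15, adjusted p = 0.000113 by limma) and Dnmt3a 2.99-fold (log2 1.58, SE 0.16, adjusted p = 0.000973). Tet1 fell by 3.76 (SE 0.18), Dnmt3b by 2.53 (SE 0.23) and Tet2 by 1.81 (SE 0.16). Dnmt3l was lower by 3.99 (SE 0.47), with 27 and 77 interactions against 4 and 5, and passed the filter on low values only through mESC NPM. The count of 8 includes its call, which is therefore given as a description. For Dnmt1 and Uhrf1 the values were smaller, -0.67 (SE 0.17, adjusted p = 0.0257) and -1.38 (SE 0.31, adjusted p = 0.0174). Dnmt1 and Uhrf1 lost their calls whichever of the 4 libraries was left out (adjusted p = 0.0521 to 0.116 and 0.0713 to 0.109), and Dnmt3l lost its call without mOPC NPM replicate 1 (adjusted p = 0.0526).

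**Figure D2:**
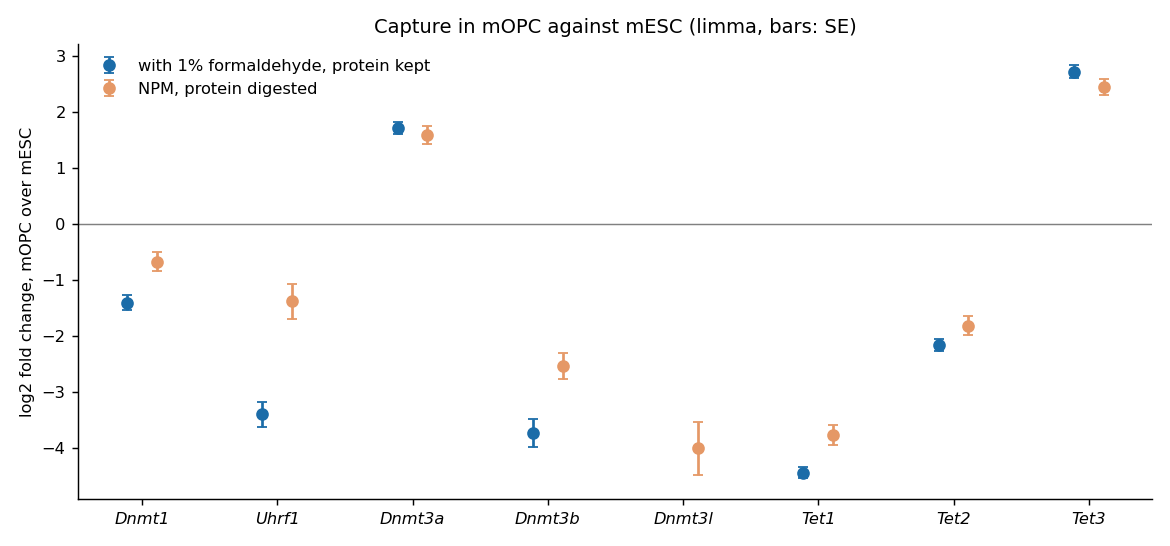
Log2 fold change of capture in mOPC over mESC for each member (points, limma) with its SE (bars), in 1FA and in NPM libraries. Dnmt3a and Tet3 lay above 0 and the other members below it in both. Dnmt3l is not drawn for 1FA because it was listed at 0 in mOPC.

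Where along the gene the RNA was captured differed for Dnmt3a. The tags between the distal and the internal start, over 84.8 kb, were 80.2, 83.1 and 75.2 CPM in mESC 1FA against 219, 246 and 243 in mOPC 1FA. The tags from the internal start to the gene end, over 22.7 kb, were 30.7, 36.0 and 36.7 CPM in mESC 1FA and 40.7, 49.8 and 32.5 in mOPC 1FA. The groups did not overlap in the first stretch and overlapped in the second. Tags downstream of the internal start hence made up 27.4%, 30.1% and 32.6% of Dnmt3a tags in mESC 1FA and 15.7%, 16.8% and 11.7% in mOPC 1FA. An RNA begun at the distal start also covers the downstream stretch, so the 2 transcripts cannot be separated there. In NPM libraries the values were 63.6% and 45.7% downstream in mESC and 34.6% and 27.3% in mOPC, which did not overlap. No test was made of these values.

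For Tet1, 13.2%, 10.0% and 10.1% of the tags in mESC 1FA lay in the 21.7 kb between the start shown above and the farther upstream end of the gene in GENCODE, at 185, 149 and 160 CPM. In mOPC 1FA this stretch held 2, 0 and 1 tags, against 104, 100 and 115 in the rest of the gene. The share was 12.8% and 13.1% in mESC ActD4. In NPM the lines lay closer, at 4.49% and 4.13% in mESC and 1.44% and 2.73% in mOPC. No test was made of these shares. The stretch also holds Gm26479, a small nuclear RNA gene on the same strand. Tags before the RefSeq start were not particular to Tet1. In Tet3 the 17.4 kb before its start held a mean of 27.1% of its tags in mESC 1FA and 28.4% in mOPC 1FA, also not tested.

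**Figure D3:**
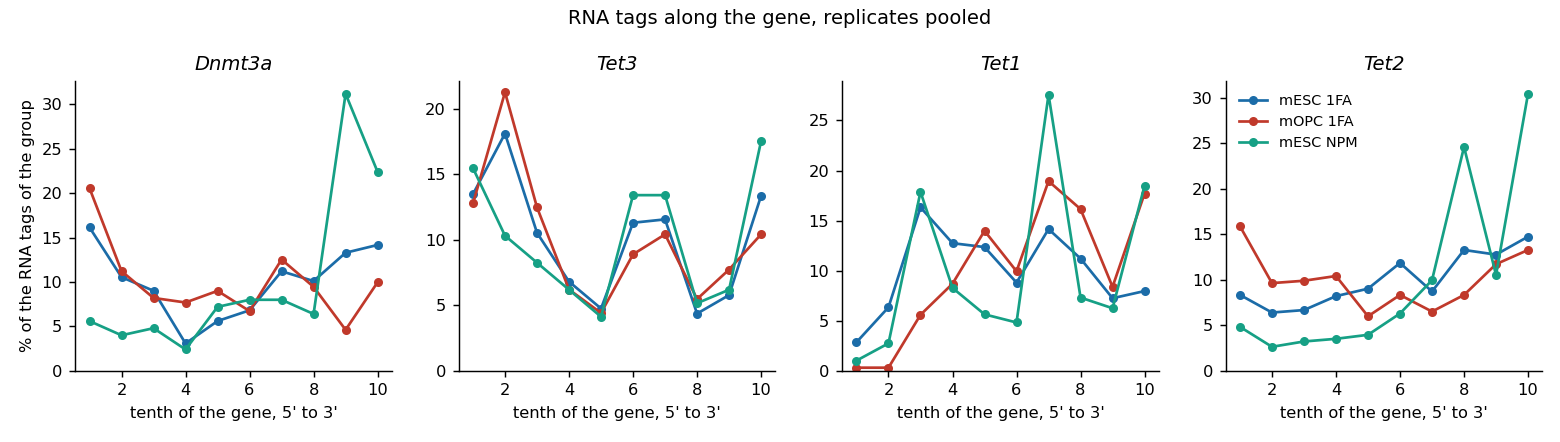
Percent of the RNA tags of a group in each of 10 equal parts of the gene, from 5′ to 3′, for Dnmt3a, Tet3, Tet1 and Tet2 with replicates pooled. The first 2 parts of Tet1 held tags in mESC and few in mOPC, and in mESC NPM the tags of Dnmt3a and Tet2 lay toward the 3′ end.

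How far the RNAs reached in cis, that is on their own chromosome, was measured as the mean of log10 of the distance in bp (plus 1) between RNA tag and DNA tag. Tet1 reached farthest in mESC 1FA, with means of 5.55, 5.44 and 5.53 and median distances of 430 kb, 342 kb and 394 kb. It was listed at 430 bins pooled over replicates, 428 of them in cis and 77 of these within 1 Mb of the gene, over a span of 109 Mb of chromosome 10. Beyond 10 Mb lay 9.56%, 9.21% and 9.44% of its interactions, and the farthest were at 59.2 Mb. Tet2 followed with 104 cis bins over 16.6 Mb and medians of 126 kb, 114 kb and 145 kb. Uhrf1, Dnmt3a, Dnmt3b, Dnmt3l and Tet3 spanned at most 1.45 Mb, and Dnmt1 25.5 Mb, with 0.297% to 0.640% of its interactions beyond 10 Mb.

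Between the lines, 4 of the 6 members with enough cis interactions were called for reach, all lower in mOPC 1FA, beside 51.0% of 6337 transcripts. Tet1 went from a mean of 5.50 to 4.399 (difference -1.10, SE 0.07, adjusted p = 9.67e-05 by limma), with medians of 39.5, 40.7 and 33.8 kb in mOPC 1FA and no interaction beyond 1 Mb. Uhrf1 went from 4.60 to 3.53 (difference -1.08, SE 0.21, adjusted p = 0.00445), on 19, 10 and 12 interactions in 3 bins in mOPC 1FA. Dnmt1 (difference -0.31, adjusted p = 0.0486) and Tet2 (difference -0.31, adjusted p = 0.0199) fell less, and both lost the call without mESC 1FA replicate 1 or replicate 3, when 2 members remained called, and with the replicate number as a block (adjusted p = 0.0665 and 0.0615). Dnmt3a had a difference of 0.13 (SE 0.09, adjusted p = 0.269) and Tet3 one of -0.02 (SE 0.07, adjusted p = 0.797). Dnmt3b and Dnmt3l had too few interactions in mOPC to be tested.

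The 4 RNAs that reached less far were also captured less in mOPC, and Dnmt3a and Tet3 were captured more. The listed pairs of the 8 members held at least 7 interactions each in these groups, although the smallest pairs of other transcripts held 3. The part of capture in the difference of reach was not tested. When each bin was counted once irrespective of its interactions, all 6 members tested were called, beside 5380 of 6337 transcripts, with Dnmt3a at 0.22 and Tet3 at 0.25 (both farther in mOPC). The bins listed for Dnmt3a numbered 39 in mESC 1FA and 55 in mOPC 1FA, with 36 shared (92.3% and 65.5%), and those for Tet3 35 and 57, with 33 shared (94.3% and 57.9%). For Tet1, all 16 mOPC bins were among the 430 of mESC (3.72%), and for Dnmt1 all 19 were among 52 (36.5%).

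**Figure D4:**
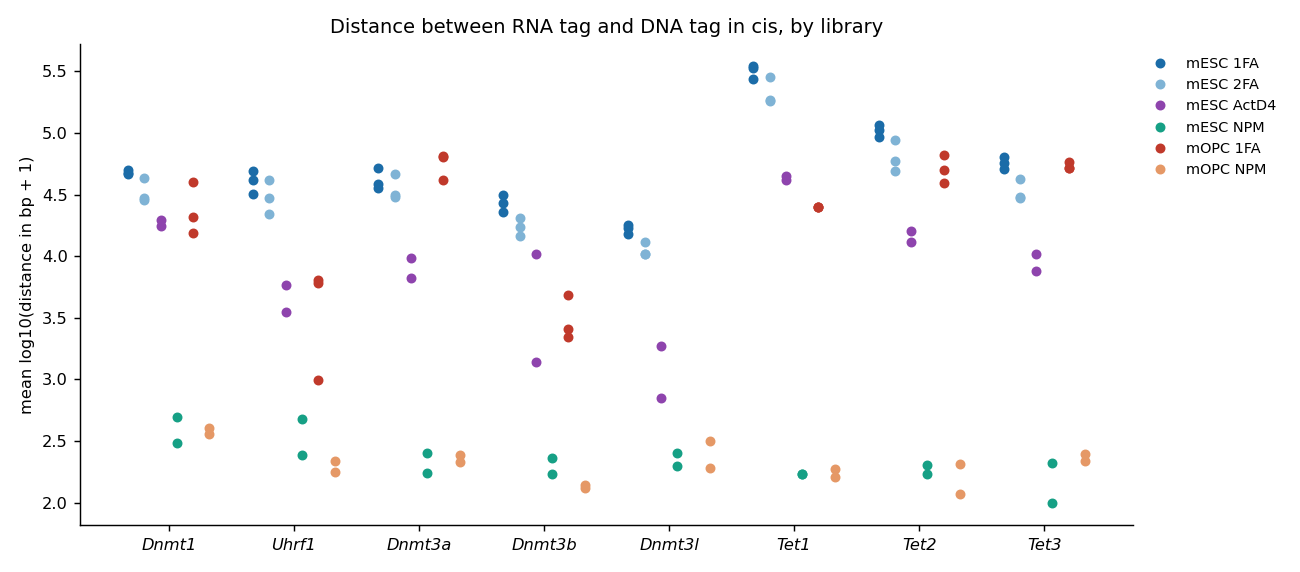
Mean log10 of the distance in bp (plus 1) between RNA tag and DNA tag in cis for each member (points are libraries, colours are groups). Tet1 in mESC 1FA reached farthest, mESC ActD4 libraries lay below those of mESC 1FA, and NPM libraries lay lowest.

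In the 1FA groups the genes most often met lay on the chromosome of the RNA. Counts were not scaled to the length of the gene met, so a long gene can lead by its length. Outside its own gene, Tet1 RNA in mESC 1FA met Ctnna3 (an alpha-catenin gene) 512 times at a median of 847 kb, with 208, 121 and 183 interactions per library, then Stox1 366 and Ccar1 346 times. In mOPC 1FA it met Ccar1 and Slc25a16 17 times each and Rufy2 16 times. Dnmt3a RNA met Dtnb (dystrobrevin beta), at medians of 148 kb and 138 kb, most often in both lines, 143 times in mESC 1FA and 312 times in mOPC 1FA. Tet3 RNA likewise met the bicarbonate transporter gene Slc4a5 most often in both, 55 and 125 times. Uhrf1 RNA met Kdm4b, a histone demethylase gene, 120 times in mESC 1FA and 16 times in mOPC 1FA.

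In mESC 1FA the other gene most often met by Dnmt1 RNA was S1pr2 (70 interactions), by Tet2 RNA Ppa2 (198) and by Dnmt3l RNA Icosl (42). Dnmt3b RNA met Dnmt3c-ps, a copy of Dnmt3b beside it, 45 times, with 6, 14 and 25 per library, and tags of such near-identical genes are uncertain in their assignment. Several members overlap other genes on the opposite strand, namely Dnmt3a with Dnmt3aos, Dnmt3b with Dnmt3bos, Dnmt3l with Aire, Tet2 with Gm42567 and Tet3 with B230319C09Rik. RNA tags were assigned by strand, which separates these. Strand cannot separate the genes that overlap on the same strand, which were Mir7081 in Dnmt1, Gm48353 and Gm26479 in Tet1, and Mir6374 and 5430434F05Rik in Tet3, and a DNA tag in any overlap lies in both genes.

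In mESC 1FA, 66 of the 19963 member interactions lay on other chromosomes. Of these, 52 fell in 1 bin of chromosome 17 that holds Gm26917 and CT010467.1. In mESC 2FA there were 28 of 16346, all in that bin. In mESC NPM there were 210 of 3449, 166 of them in it, and in mOPC NPM 11 of 2574, all in it. None was listed in mOPC 1FA or mESC ActD4. Over all listed interactions the share on other chromosomes was 5.44% to 6.73% in mESC 1FA and 4.57% to 5.69% in mESC 2FA. It was 3.61% and 4.87% in mESC NPM, and 3.93% and 6.27% in mOPC NPM. In mOPC 1FA it was 11.3% to 13.3%, and in mESC ActD4 8.39% and 8.96%. As DNA targets of other RNAs, the member genes were met in mESC 1FA by 7 (Tet2) to 17 (Dnmt1) other RNAs. Tet1 DNA was met 622 times in mESC 1FA and 658 times in mOPC 1FA, although its own RNA was far less captured in mOPC. Dnmt3l DNA was met 238 times in mESC 1FA and 22 times in mOPC 1FA, and Tet2 DNA 166 and 42 times.

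After actinomycin D, Dnmt1 was captured more relative to the other listed RNAs. Against mESC 1FA, 3 of 8 members were called, 1 higher and 2 lower, beside 61.3% of 9896 transcripts, whose median log2 fold change was -0.41 (-0.20 with scaling by totals). Dnmt1 rose, from 253, 256 and 204 to 466 and 433 CPM. On the TMM scale of the test its rise was 1.64-fold (log2 0.71, SE 0.13, adjusted p = 0.00211 by limma). Dnmt3l had 41.2, 50.8 and 48.0 CPM in mESC 1FA and 33.4 and 11.9 in ActD4, on 14 and 3 interactions (log2 -1.41, SE 0.40). Dnmt3l passed the filter on low values only through mESC 1FA, so its call among the 3 is given as a description. Its value was -2.10 without ActD4 replicate 1 and -0.67 without ActD4 replicate 2, and the call was lost without any 1 of the 3 mESC 1FA libraries (adjusted p = 0.0693 to 0.0917). Tet1 fell slightly on the TMM scale (log2 -0.28, SE 0.08, adjusted p = 0.0219), and had 1433 and 1398 CPM beside 1400, 1490 and 1582 in mESC 1FA. Without mESC 1FA replicate 2 or replicate 3, 1 member (Dnmt1) remained called, and with scaling by totals 4 were, 3 higher (Dnmt1, Dnmt3a and Tet3) and 1 lower (Dnmt3l). The other 5 members had adjusted p from 0.0689 to 0.182.

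Reach fell for all 7 members tested after actinomycin D, beside 95.7% of 4105 transcripts called (3923 lower and 7 higher). Tet1 went from a mean of 5.50 to 4.64 (difference -0.86, SE 0.07, adjusted p = 0.000117 by limma), with medians of 80.0 and 80.1 kb and no interaction beyond 1 Mb. The differences of the others ran from -0.41 (Dnmt1, SE 0.06) to -0.95 (Uhrf1, SE 0.10), around the median of -0.80 over all transcripts. The ActD4 value of Uhrf1 rests on 22 and 23 interactions in 3 bins. Dnmt3b, with 25 and 12 interactions in ActD4, was at -0.85, at -0.41 without ActD4 replicate 1 and at -1.29 without ActD4 replicate 2, and lost its call without mESC 1FA replicate 1 (adjusted p = 0.0501). The interactions with the own gene made up 42.0% to 91.1% of each member's interactions, against 18.6% to 43.8% in mESC 1FA. Dnmt3a, with 85.9% and 91.1%, had the highest share. Over all listed interactions, own-gene contacts made up 29.8% to 32.0% in mESC 1FA and 55.7% and 54.5% in ActD4, and Dnmt1 and Tet1 lay below the latter. The ActD4 libraries held fewer listed interactions than mESC 1FA, and the part of this in the shorter reach was not tested.

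In NPM libraries nearly every listed contact lay within the gene itself. In mESC NPM the medians in cis were 240 to 477 bp and own-gene contacts made up 89.6% to 100% of each member's interactions. All 8 members were called for lower reach, beside 99.9% of 7034 transcripts, with differences from -1.87 (Dnmt3l) to -3.27 (Tet1, SE 0.07, adjusted p = 5.11e-08 by limma). In mOPC NPM 6 of 6 were called, beside 99.7% of 7280 transcripts, from -1.23 (Uhrf1) to -2.52 (Tet2). Tet1, with 430 bins in mESC 1FA, was listed at 9 in mESC NPM.

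Capture in NPM depended on the scaling. Against mESC 1FA, 4 of 8 members were called, all lower, beside 50.7% of 10096 transcripts: Uhrf1 (log2 -1.12, SE 0.18), Tet3 (-0.78, SE 0.17), Dnmt3a (-0.62, SE 0.15) and Dnmt1 (-0.53, SE 0.15). Dnmt1 lost its call without mESC 1FA replicate 1 (adjusted p = 0.0600) or replicate 2 (adjusted p = 0.0685). With scaling by totals 3 were called, all higher (Dnmt3b, Dnmt3l and Tet2). The median of all transcripts then moved from -0.18 to 0.51, and the calls of all transcripts that were higher from 1765 of 5118 to 4203 of 5529. With scaling by totals none of the 4 was called, and Dnmt1 (0.17) and Dnmt3a (0.072) turned positive, although all 4 lay below the median of all transcripts under both scalings. In mOPC NPM against mOPC 1FA, 3 of 7 members were called, beside 55.5% of 10419 transcripts. Tet3 (log2 -1.18, SE 0.11) and Dnmt3a (log2 -0.88, SE 0.13) were lower. Dnmt3b was higher, with 20 and 17 interactions against 6, 7 and 9 (log2 1.24, SE 0.33). Dnmt3b passed the filter on low values only through mOPC NPM, so its call among the 3 is given as a description. The call was lost without mOPC NPM replicate 1 or replicate 2. Scaling by totals gave 6 calls there, 5 higher and 1 lower, with 6157 of 6914 calls over all transcripts higher against 2930 of 5779.

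The change under NPM differed between the lines for Uhrf1, 1 of 7 members tested, beside 32.7% of 12213 transcripts. The log2 fold change was 1.72 higher in mOPC than in mESC (SE 0.36, adjusted p = 0.00449 by limma). Dnmt3l, listed at 0 in mOPC 1FA, gives no value. With scaling by totals instead of TMM, more members were called, so the count depended on the scaling. The other 6 members had adjusted p from 0.0645 to 0.802. All comparisons with mESC 1FA share those 3 libraries.

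Between the formaldehyde concentrations no member was called without pairing the libraries, as long as every interaction was counted. In mESC 2FA against mESC 1FA, 0 of 8 were called by limma, beside 0.0301% of 9962 transcripts (3, with 1145 at an unadjusted p under 0.05), and no member had an unadjusted p under 0.05. Replicate numbers paired these libraries, and with the replicate as a block Dnmt1 was called (log2 -0.33, adjusted p = 0.0481), among 521 of 9962 transcripts. Without the block, its value ran from -0.56 (without mESC 2FA replicate 1) to -0.14 (without mESC 2FA replicate 3). Its 592, 385 and 377 interactions in 2FA stood at 264, 189 and 150 CPM. Tet1 was listed at 364 bins in 2FA, 247 of them shared with 1FA (67.9% and 57.4%), and 7.11%, 7.45% and 6.47% of its interactions lay beyond 10 Mb.

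In mESC 1FA most tags of every member were intronic, whereas in NPM introns held under 50% of the tags of Tet1 and Tet2. Introns held 78.2% to 79.5% of Tet1 tags in mESC 1FA, 62.0% and 63.4% in ActD4, and 42.0% and 41.7% in mESC NPM. Coding exons held 15.1%, 13.7% and 12.7% of Tet1 tags in mESC 1FA, 32.0% and 26.7% in ActD4, and 43.8% and 43.4% in mESC NPM. The groups did not overlap. Dnmt1 followed the same order, with 15.1%, 9.44% and 9.88%, then 27.7% and 24.8%, then 51.3% and 36.3% in coding exons. Tet2 had 14.7% to 19.2% in mESC 1FA and 33.3% and 39.5% in ActD4.

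In 6 members the coding share of both ActD4 libraries lay above mESC 1FA, and Dnmt3a and Uhrf1 were the exceptions. Among the 6, Dnmt3b had only 25 and 12 tags in ActD4 and Dnmt3l 14 and 3. Dnmt3a had 84.4% of its tags in introns in both ActD4 libraries and 76.7% to 81.6% in mESC 1FA. Its coding exons held 4.69% and 4.44% in ActD4, within the 3.77% to 7.02% of mESC 1FA. Uhrf1 had 0% and 8.70% of its tags in coding exons in ActD4 and 3.67% to 9.24% in mESC 1FA. These ActD4 values rest on 64 and 45 tags of Dnmt3a and on 22 and 23 of Uhrf1. In mESC NPM the coding share of Dnmt3a was 29.1% and 22.9%. These shares were not tested, and the same shares over all transcripts were not computed.

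**Figure D5:**
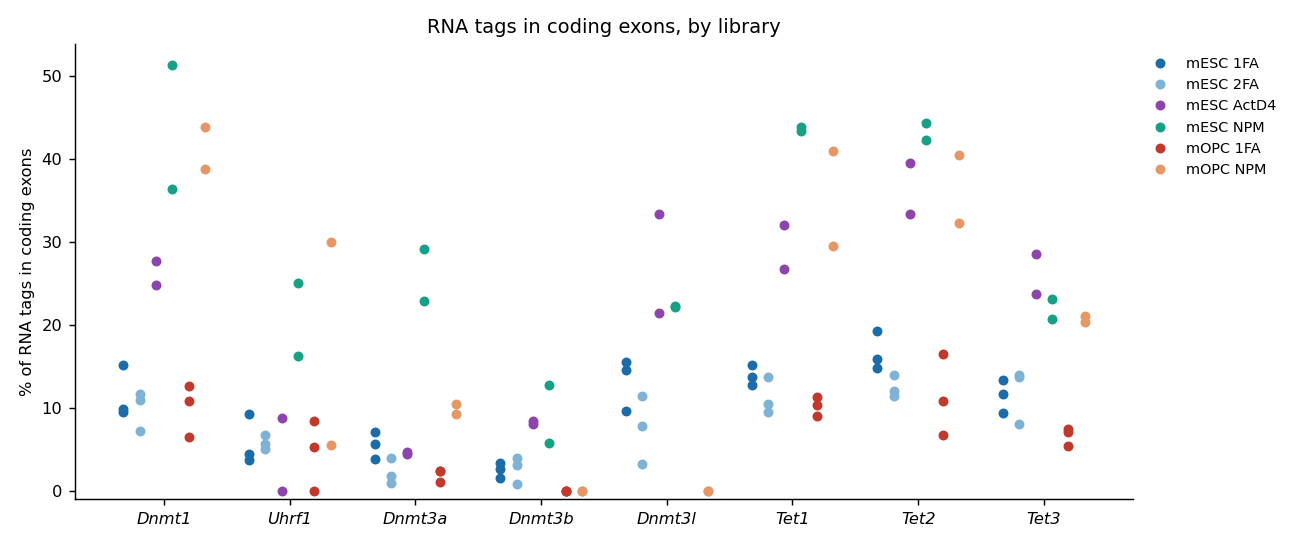
Percent of RNA tags in coding exons for each member (points are libraries, colours are groups). Dnmt1, Tet1 and Tet2 had more coding tags in ActD4 and NPM than in 1FA libraries, and Dnmt3a had more in NPM and not in ActD4.

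Of 43 other genes of the methylation pathway, 33 were tested between the lines and 28 called, 7 higher and 21 lower. Over all 10256 transcripts tested, 78.0% were called, 3380 higher and 4622 lower. Their median log2 fold change was -0.93, against -0.30 over all transcripts. Among 13 partners of methylation tested, such as the remodelling ATPase Hells and the ubiquitin protease Usp7, 11 were lower and 0 higher. Of 8 readers of methylation, 5 were higher and 2 lower, of 7 removal and repair genes 2 were higher and 4 lower, and of 5 genes supplying the methyl donor 4 were lower. The highest were Zbtb38 (log2 1.84, SE 0.10) and Zbtb4 (1.48, SE 0.12), which encode zinc finger proteins that bind methylated DNA, and Smug1 (1.32, SE 0.38), a uracil glycosylase gene. Among those called lower, the imprinting factor gene Zfp57 and the glycosylase genes Neil3 and Neil2 were each listed at 0 in all mOPC 1FA libraries, so no fold is given. They passed the filter on low values only through mESC 1FA but remain in the counts and the median.

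After actinomycin D, 18 of 34 of these genes were called, 2 higher and 16 lower, beside 61.3% of 9896 transcripts (1681 higher and 4390 lower). Their median of -0.38 stood beside -0.41 over all transcripts. Higher were Ehmt2 (log2 1.15, SE 0.27) and Trim28 (1.03, SE 0.20), encoding a histone methyltransferase and a corepressor. Among those called lower, Neil3, Cdca7l, Pcna and Trdmt1 were listed at 0 in both ActD4 libraries, so no fold is given. They passed the filter on low values only through mESC 1FA but remain in the counts and the median.

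The transcripts whose levels over the 15 libraries were most like those of each member, among 10659 transcripts, are given by Pearson's r of log2 CPM as a description. They were Rras2 (0.999) and Spint2 (0.998) for Tet1, Lama1 (0.995) and Uty (0.994) for Tet2, and Zfyve28 (0.991) and Abtb2 (0.989) for Tet3. For Dnmt3a they were Fyn (0.994) and Trio (0.992), for Dnmt3b Zfp106 (0.990) and Dmc1 (0.984), and for Dnmt3l Bcl3 (0.992) and Tep1 (0.992). Upf1 and Rcc2 (both 0.978) were nearest to Dnmt1, and Eno1 (0.985) and Bicdl1 (0.984) to Uhrf1. The libraries fall by cell line, which can give high values, and the part of this was not tested.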

How the data were processed

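RNA–DNA interactions of 15 libraries were used as deposited. The authors discarded ribosomal reads and PCR copies, mapped both kinds of tag to mm10 with BWA 0.7.15-r1140, gave RNA tags a GENCODE M14 gene on the same strand, and tested every combination of RNA and 25-kb DNA bin over pooled replicates. The p-values deposited for a pair are identical in its replicates, so replicates share a list of pairs and their spread understates that of independent calls. The other deposited columns used are tag positions. Significant pairs only are listed, so the totals of the files are not sequencing depths, and read numbers were not used here. Libraries of fewer listed interactions give less precise values. Replicate numbers come from the labels.

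Interactions were counted per transcript and library after merging lines that differ in a second annotation. Symbols came from GENCODE M21. Transcripts with at least 10 interactions in as many libraries as the smaller group and 15 in all were fitted with limma 3.58.1 (R 4.3.3) on log2 CPM (TMM scaling, prior count 0.5, intensity trend, two-sided, Benjamini-Hochberg over all transcripts, called under 0.05). Reach was fitted with limma on the mean log10 distance of each library, without scaling, prior count or intensity trend. Transcripts needed at least 10 cis interactions in every library, and adjustment and threshold were the same. The scripts were tested on simulated data. Members, lists and tests were chosen with earlier results of these data known, and the NPM difference between lines was added after seeing the data. Named in full were all members, up to 3 other methylation genes per direction, up to 3 DNA genes and the 2 most alike transcripts per member. Replicate numbers paired mESC 1FA with mESC 2FA (correlation of deviations 0.287, 0.158 and 0.250) and no other groups (-0.115 to 0.142). p-values measure the spread between batches of 1 line.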

Additional observations from a re-analysis of the deposited data

Results flagged for a closer look

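The change of capture under NPM differed between the cell lines for 1 of the 7 members tested, by a test of the difference itself (limma, all 4 groups of libraries), beside 32.7% of 12213 transcripts. For Uhrf1 the log2 fold change in mOPC exceeded that in mESC by 1.72 (SE 0.36, adjusted p = 0.00449). Its levels were 8.59, 4.74 and 6.00 CPM in mOPC 1FA against 23.6 and 15.1 in mOPC NPM, and 93.3, 100.3 and 79.8 in mESC 1FA against 64.4 and 70.6 in mESC NPM. The mOPC 1FA levels rest on 19, 10 and 12 interactions. On the TMM scale of the test the change was log2 0.74 in mOPC (SE 0.37, adjusted p = 0.128 by limma, not called) and -1.12 in mESC (SE 0.18). With scaling by totals, more members were called for the difference.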

How the results depend on the processing

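The mOPC 1FA against mESC 1FA capture calls of the 7 members listed in both lines held under every alternative run, leave-one-out included. Among these, Dnmt3b passed the low-count filter only through mESC 1FA. Without TMM, Dnmt1 (0.17), Dnmt3a (0.072) and Tet1 (0.31) turned positive in mESC NPM capture, the mOPC NPM count against mOPC 1FA became 6 (5 without the low-count filter), and the difference of the NPM change between lines, added after seeing the data, 4. With each pair counted once, the capture counts were 6 (ActD4, beside 5235 of 5673 transcripts), 8 (mESC NPM, 5311 of 5672), 5 (mOPC NPM against mOPC 1FA, 4038 of 4135) and 6 (2FA, 4339 of 5660), and values turned for Dnmt3a (-0.11) and Dnmt3b (0.0090) in ActD4, Dnmt3b (-0.51) and Tet2 (-1.64) in mESC NPM, Dnmt1 (-1.12), Tet1 (-0.51) and Tet2 (-1.16) in mOPC NPM, Dnmt3a (0.028) and Tet2 (-0.18) in 2FA, and Tet3 reach between lines (0.25). Without own-gene contacts they turned for Dnmt3a (-1.24), Tet1 (0.12) and Tet3 (-0.40) in ActD4 and Tet3 reach between lines (0.0079), and 1 of the 5 members that kept an interaction in both groups was called in mESC NPM. In 1 fit of all 15 libraries, 6 were called in ActD4 and Dnmt1 was at -0.067 in mOPC NPM. With at least 50 cis interactions, reach counts were 3 (ActD4) and 5 (mESC NPM), as fewer members were tested.

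With the replicate block, 2 members were called for reach between lines and 1 for 2FA capture, Dnmt1 in mOPC NPM was at -0.026, and no other count moved by over 1.5 times. Outside 1FA against 2FA the numbers did not pair the libraries. Leaving out 1 library gave counts of 2 to 4 for reach between lines, 1 to 4 for ActD4 capture, 5 to 6 for mOPC NPM against mESC NPM, and 1 to 3 for the difference of the NPM change. Values ranged from -0.048 to 0.00060 for Tet3 reach between lines, from -0.34 to 0.80 for Dnmt3l in mESC NPM, from -0.072 to 0.21 for Dnmt1 in mOPC NPM, from -0.11 to 0.36 for Dnmt3l and -0.0037 to 0.16 for Tet2 in 2FA, and from -0.039 to 0.18 for Tet2 in the difference of the NPM change. Apart from fewer members or libraries fitted, the cause was not tested. No member could be tested for NPM reach without own-gene contacts, or for mOPC NPM against mESC NPM capture with pairs counted once or without own-gene contacts. Members left with no interaction in a group that had some were not counted. Listed totals limit ActD4 and mESC NPM most.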
